A study of Mus musculus with 24 samples.

Results

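The 9 genes described here are Ms4a4a, Ms4a4b, Ms4a4c, Ms4a6b, Ms4a6c, Ms4a6d, Ms4a7, Ms4a8a and Ms4a14, members of the membrane-spanning 4-domains family A, out of 55487 genes in the deposited table. They were taken by gene symbol from that table, and Ms4a1, which encodes the B cell antigen CD20, was left out by the rule. Bulk RNA sequencing had been done on macrophages sorted from mouse lung (alveolar macrophages), liver (Kupffer cells), brain (microglia) and spleen (splenic macrophages). Each cell type came from wild-type mice (WT) and from mice of genotype Z165KO (KO), with 3 libraries in each of the 8 groups and 100000 sorted cells per library. The labels do not describe the Z165KO allele, the sorting gate, or the age of the mice. Nothing in them states that the 3 libraries of a group come from different mice. The p-values therefore reflect only how far these libraries vary, and that variation could be technical.

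MS4A proteins are small multi-pass membrane proteins of leukocytes, and their best known relatives are CD20 on B cells and the beta chain of the high-affinity IgE receptor on mast cells. Several members sit beside other surface receptors and change how these signal: MS4A4A is found with the beta-glucan receptor Dectin-1 on macrophages, and the MS4A locus is linked in people to the level of soluble TREM2, a lipid receptor of microglia. Ms4a7 is used as a marker of border-associated and monocyte-derived macrophages in the brain, Ms4a8a as a gene of alternatively activated macrophages, and Ms4a4b is best known from T cells.

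All 9 genes lie in a single stretch of 537.4 kb on chromosome 19, chr19:11067471-11604849 in the mm10 build, among 17 protein-coding genes. Read from the left end, Ms4a8a (chr19:11067471-11081102), Ms4a14 (chr19:11301249-11314454) and Ms4a7 (chr19:11321039-11336146) lie on the minus strand. The middle of the stretch holds the 5 plus-strand members: Ms4a4a (chr19:11375523-11392790), Ms4a4c (chr19:11404770-11427246), Ms4a4b (chr19:11443553-11467055), Ms4a6c (chr19:11469366-11482192) and Ms4a6b (chr19:11516512-11531256). Ms4a6d (chr19:11586604-11604849), on the minus strand, closes it. Some of these genes are near copies. The coding sequences of Ms4a4b and Ms4a4c were identical at 91.7% of aligned positions, those of Ms4a6b and Ms4a6d at 79.8%, and those of Ms4a6b and Ms4a6c at 74.0%. Of all stretches of 50 bases in the annotated transcripts, 8.19% of those of Ms4a4c and 10.54% of those of Ms4a6c also occur in another gene on the same strand. Ms4a6c also shares 1088 exon bases with the antisense gene BE692007, and the sources used here do not say whether counting kept strand. Counts of these near copies are therefore uncertain to the extent that reads could be split between them.

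The sequences before the transcription starts of the 2 near-copy pairs and of Ms4a8a are shown because the results turn on these 5 genes. They are the 250 bases upstream of the RefSeq start in GRCm38.p6 (the mm10 build), 5′ to 3′ on the strand of the gene. The first pair is Ms4a4b (chr19:11443308-11443557, plus strand) and Ms4a4c (chr19:11407411-11407660, plus strand), and capitals mark the 6 runs of at least 10 bases that are identical in both. In Ms4a4b the last runs adjoin and print as a single stretch, since Ms4a4c has an extra base between them.
Ms4a4b: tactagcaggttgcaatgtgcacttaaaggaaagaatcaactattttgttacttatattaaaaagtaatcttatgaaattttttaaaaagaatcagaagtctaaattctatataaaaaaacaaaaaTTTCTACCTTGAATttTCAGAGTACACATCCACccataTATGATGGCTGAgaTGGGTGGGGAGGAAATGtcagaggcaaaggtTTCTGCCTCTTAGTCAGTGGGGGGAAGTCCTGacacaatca
Ms4a4c: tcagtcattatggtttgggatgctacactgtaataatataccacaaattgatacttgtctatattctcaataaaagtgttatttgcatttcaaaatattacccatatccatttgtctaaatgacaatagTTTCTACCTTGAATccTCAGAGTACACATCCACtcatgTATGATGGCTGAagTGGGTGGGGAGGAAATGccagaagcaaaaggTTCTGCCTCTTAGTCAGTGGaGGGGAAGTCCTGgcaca
The shared runs cover 92 bases, all toward the start, and the aligned windows were identical at 68.8% of positions. The second pair is Ms4a6b (chr19:11518309-11518558, plus strand) and Ms4a6c (chr19:11469118-11469367, plus strand), with the 3 identical runs in capitals.
Ms4a6b: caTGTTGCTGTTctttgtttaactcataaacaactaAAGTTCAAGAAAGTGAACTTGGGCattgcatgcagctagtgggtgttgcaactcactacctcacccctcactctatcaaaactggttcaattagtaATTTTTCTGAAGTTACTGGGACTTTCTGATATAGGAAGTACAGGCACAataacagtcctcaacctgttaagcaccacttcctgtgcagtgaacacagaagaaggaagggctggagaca
Ms4a6c: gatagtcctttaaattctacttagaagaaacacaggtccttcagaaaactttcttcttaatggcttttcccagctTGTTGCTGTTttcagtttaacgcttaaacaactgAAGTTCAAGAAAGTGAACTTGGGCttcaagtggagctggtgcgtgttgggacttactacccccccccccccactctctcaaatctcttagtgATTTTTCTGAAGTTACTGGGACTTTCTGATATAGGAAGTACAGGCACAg
These runs cover 82 bases, of which 48 form a single run, and the aligned windows were identical at 45.8% of positions. The last is Ms4a8a (chr19:11081104-11081353, minus strand), with the letters TGCTGAC in capitals.
Ms4a8a: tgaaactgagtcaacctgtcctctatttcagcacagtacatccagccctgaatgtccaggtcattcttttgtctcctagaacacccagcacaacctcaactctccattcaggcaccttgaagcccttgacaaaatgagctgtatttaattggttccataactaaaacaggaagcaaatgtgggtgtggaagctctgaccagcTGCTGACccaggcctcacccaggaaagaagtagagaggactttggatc
Windows of 300 bases, from 250 before to 50 after the start, were searched on both strands for 4 motifs: CACCTG (an E-box bound by ZEB factors), TGCTGAC (a half-site of MAF factors), GAGGAAGT (a core bound by PU.1) and the interferon-stimulated response element. RefSeq promoter windows were matched for 8 of the 9 genes. The only match was TGCTGAC in Ms4a8a, with its first base at -48 from the start. These letters occur in 4.67% of the 32851 promoter windows of the table, CACCTG in 20.21%, GAGGAAGT in 3.2% and the interferon-stimulated response element in 3.44%. A match is a description of the letters and not a measured binding site.

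Total counts per library ranged from 50449347 to 65981787. Levels are given as CPM, the count divided by the library's total and scaled to 1e6, as mean ± SD of 3 libraries unless single libraries are listed. The labelled cell types carried their defining genes in WT: Chil3 stood at 20410 CPM in alveolar macrophages, Clec4f at 9353 CPM in Kupffer cells, Tmem119 at 4985 CPM in microglia and Spic at 1476 CPM in splenic macrophages. The series title names Zeb2. Its level ranged from 190 to 297 CPM in the WT alveolar libraries and from 126 to 142 CPM in the KO ones, and the genotypes overlapped in the other 3 cell types. The cell types also held RNA of other leukocytes in amounts that differed between genotypes, as given below. In such bulk samples, fewer cells of a type and less RNA per cell cannot be told apart.

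The make-up of the Ms4a genes differed among the macrophage types, with members shared between them. In WT, Ms4a8a and Ms4a6d led in alveolar macrophages and Ms4a6d and Ms4a6b in microglia. Kupffer cells and splenic macrophages held a mixture of most members. The mean levels of Ms4a6d and Ms4a6b were no lower in Kupffer cells than in microglia. All 9 members differed among the 4 WT cell types in edgeR's F test at a Benjamini-Hochberg adjusted p under 0.05, where 52.3% of the 21679 genes tested did. The largest adjusted p among the 9 was 0.00403.

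**Figure D1:**
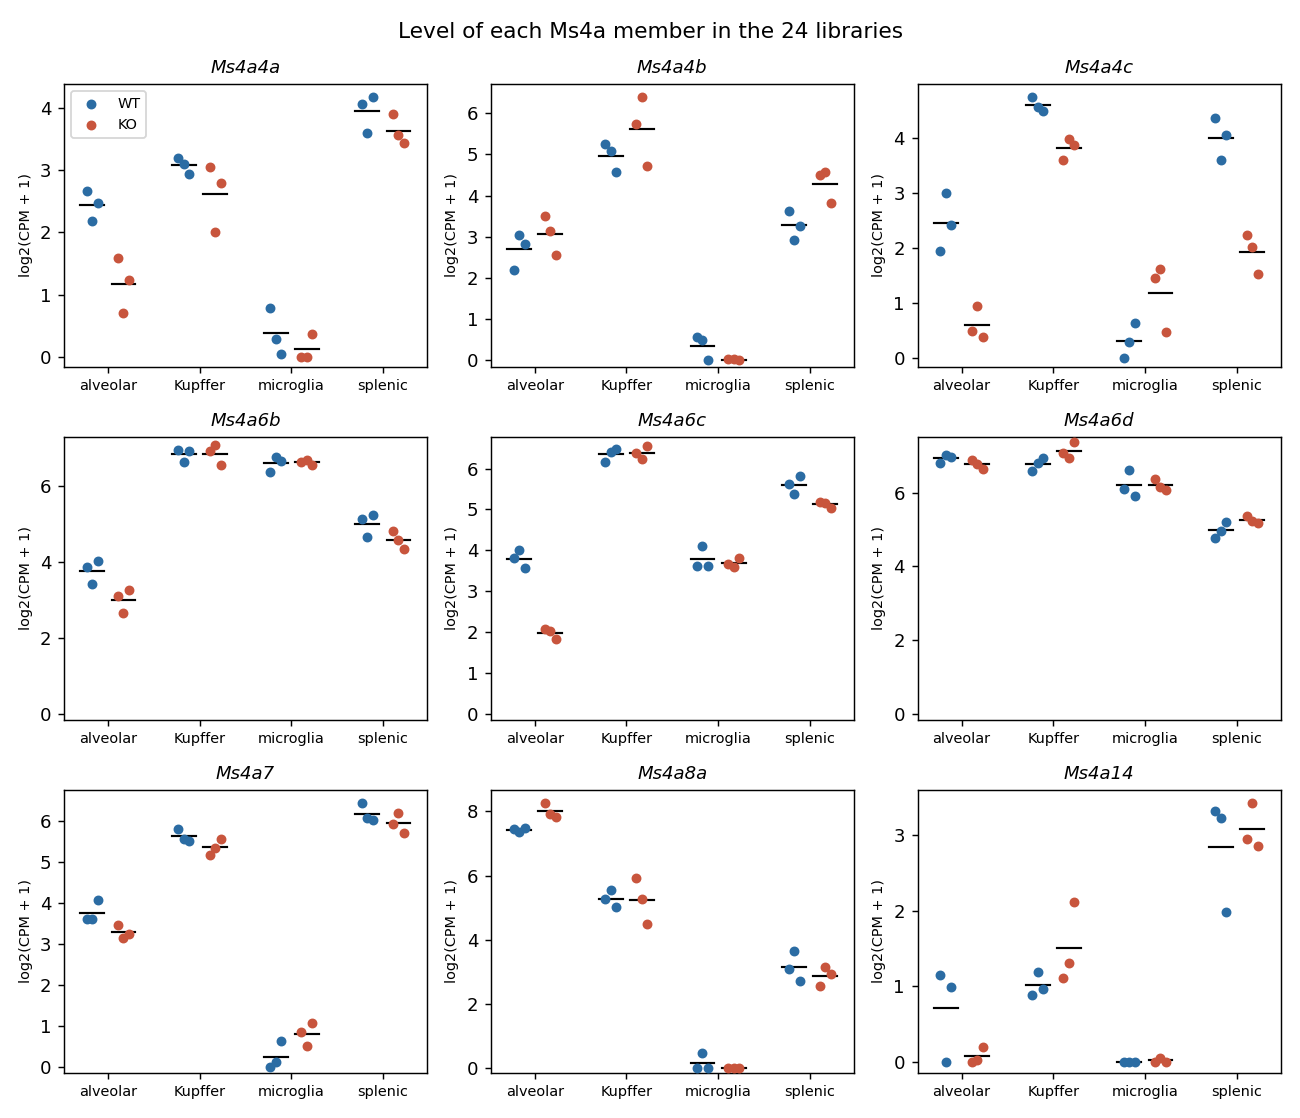
Level of each member in the 24 libraries on the scale log2(CPM + 1), one panel per gene, with the 4 cell types on the horizontal axis, WT in blue, KO in red and the group mean as a black line. Ms4a8a is highest in alveolar macrophages, Ms4a14 in splenic macrophages, and 6 of the 9 members lie at or below 2.06 CPM in every microglia library.

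Ms4a8a set alveolar macrophages apart. It stood at 172, 162 and 177 CPM in the 3 WT alveolar libraries, at 37.5, 45.6 and 31.4 CPM in Kupffer cells and at 7.50, 11.4 and 5.53 CPM in splenic macrophages. In microglia 1 library had 20 counts and the others had none. The cell types did not overlap, and each step down the order passed edgeR's test: alveolar over Kupffer by a log2 difference of 2.28 ± 0.54 (SE, adjusted p = 0.00874), Kupffer over splenic by 2.02 ± 0.54 (adjusted p = 0.026) and splenic over microglia by 6.02 ± 0.75 (adjusted p = 9.82e-05).

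Ms4a6d, a gene of the Ms4a6 group, was the one member at 26.2 CPM or more in every library. It stood at 120.7 ± 9.76 CPM in alveolar macrophages, 108.3 ± 13.5 CPM in Kupffer cells, 74.3 ± 19.1 CPM in microglia and 30.7 ± 4.81 CPM in splenic macrophages (SD, n = 3 each). The first 3 overlapped their neighbours in this order and did not pass the test against them (edgeR adjusted p = 0.329 and 0.167). Splenic macrophages lay below microglia by a log2 difference of 1.23 ± 0.20 (adjusted p = 0.000628).

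Ms4a6b, its nearest relative by sequence among the members, had another order. It was highest in Kupffer cells (122, 97.7 and 121 CPM) and microglia (81.3, 108 and 101 CPM), which overlapped, and low in alveolar macrophages (13.6, 9.76 and 15.3 CPM). Splenic macrophages lay between them at 33.8, 24.1 and 36.5 CPM, below microglia (edgeR adjusted p = 8.58e-05) and above alveolar macrophages (adjusted p = 0.0003). Ms4a6c, the other gene of this group, was highest in Kupffer cells (81.3 ± 9.33 CPM) and splenic macrophages (48.1 ± 7.22 CPM). These did not overlap but did not pass the test (adjusted p = 0.0907). Ms4a6c was at 12.98 ± 2.18 CPM in alveolar macrophages and 12.9 ± 2.77 CPM in microglia, which could not be ordered (log2 difference 0.03, 95% interval of alveolar minus microglia from -0.47 to 0.41).

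Ms4a7 and the 3 Ms4a4 genes were at 0.727 CPM or less in every WT microglia library. Ms4a7 reached 86.0, 67.1 and 64.2 CPM in splenic macrophages, 55.1, 46.7 and 45.1 CPM in Kupffer cells and 11.2, 11.3 and 15.8 CPM in alveolar macrophages. In WT microglia it was at 0, 0.0765 and 0.552 CPM. Splenic macrophages and Kupffer cells did not pass the test for Ms4a7 (edgeR adjusted p = 0.39), while the steps from Kupffer to alveolar (adjusted p = 0.0274) and from alveolar to microglia (adjusted p = 6.19e-05) did. Markers of border-associated macrophages, the brain cells for which Ms4a7 is a marker, summed to 618 to 917 CPM over 14 genes in WT microglia and to 931 to 1057 CPM in KO microglia, and Pf4 and Lyve1 stood at 0.492 and 1.21 CPM in WT microglia. Stab1, a scavenger receptor, made up most of this sum, at 757 CPM in WT and 941 CPM in KO (edgeR adjusted p = 0.987). The other 13 genes summed to 23.0 to 43.7 CPM in WT and 27.6 to 44.1 CPM in KO, which overlapped. Lyve1 was at 0.158 CPM and Cd163 at 0.0241 CPM in KO, against 1.21 and 1.026 CPM in WT, and neither was called (adjusted p = 0.987 and 0.818).

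Ms4a4a, the gene whose human counterpart is tied to TREM2, was highest in splenic macrophages at 14.6 ± 3.11 CPM, followed by Kupffer cells at 7.47 ± 0.767 CPM and alveolar macrophages at 4.47 ± 0.884 CPM. It stood at 0.332 ± 0.355 CPM in microglia, where Trem2 was at 1525 CPM. Ms4a4c was highest in Kupffer cells (23.3 ± 2.32 CPM) and splenic macrophages (15.4 ± 4.16 CPM), and Ms4a4b in Kupffer cells (30.9 ± 7.51 CPM). For all 3 of these genes the step from alveolar macrophages to microglia passed the test (edgeR adjusted p between 0.00144 and 0.00192), and no other step between neighbours did. Ms4a14, whose coding sequence of 3696 bases is the longest of the 9, was found mainly in splenic macrophages, at 8.97, 8.37 and 2.95 CPM. It was at 1.028 ± 0.229 CPM in Kupffer cells. Alveolar WT replicate 2 had 0 counts of Ms4a14 where the other alveolar WT libraries had 71 and 53, and no WT microglia library had a count, which allows up to 0.0191 CPM.

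Against the mean of the other 3 WT types, 2 members were higher in alveolar macrophages (Ms4a6d and Ms4a8a) and 2 lower (Ms4a6b and Ms4a6c), where 17.3% and 14.7% of genes were called in those directions. In Kupffer cells 7 of the 9 were higher, against 15.2% of genes, and Ms4a4a and Ms4a14 were not called. None was lower, where 7.58% of genes were, and all 9 differences were above 0. The mean of the other 3 types is of log2 levels and here includes microglia, where Ms4a7, Ms4a8a, Ms4a14 and the Ms4a4 genes were near 0. A member could thus be called higher in Kupffer cells while another type stood above them. Ms4a8a was at 38.2 CPM in Kupffer cells and 170.4 CPM in alveolar macrophages. Ms4a7 was at 49.0 CPM in Kupffer cells and 72.4 CPM in splenic macrophages. In microglia 7 were lower, against 20.3% of genes, Ms4a6b was higher, against 21.7%, and Ms4a6d was not called. In splenic macrophages Ms4a4a, Ms4a4c, Ms4a6c, Ms4a7 and Ms4a14 were higher, against 14.5% of genes, and Ms4a6b and Ms4a6d were lower, against 9.69%. Between pairs of types, 9 of 9 members differed between microglia and splenic macrophages, where 34.9% of genes did, and 3 of 9 between Kupffer cells and splenic macrophages, where 16.4% did.

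Levels of different genes can be set side by side only per length, as TPM, the length-scaled measure of the deposited table. The 9 genes together summed to 580.2 ± 9.55 TPM in WT alveolar macrophages, 581.9 ± 7.94 TPM in Kupffer cells, 312.1 ± 23.3 TPM in splenic macrophages and 221.4 ± 25.1 TPM in microglia. Ms4a8a gave 51.2 ± 2.44% of that sum in alveolar macrophages and Ms4a6d 37.5 ± 2.44%. In microglia Ms4a6d gave 59.6 ± 4.34%, Ms4a6b 30.6 ± 4.53% and Ms4a6c 8.8 ± 0.121%. No gene gave most of the sum in the other types. The leading shares were those of Ms4a6d (33.5 ± 3.07%) and Ms4a6c (21.3 ± 1.74%) in Kupffer cells. In splenic macrophages Ms4a6c (23.9 ± 1.72%), Ms4a6d (18.2 ± 3.05%), Ms4a4a (17.7 ± 2.15%) and Ms4a7 (16.7 ± 2.53%) were nearly level.

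**Figure D2:**
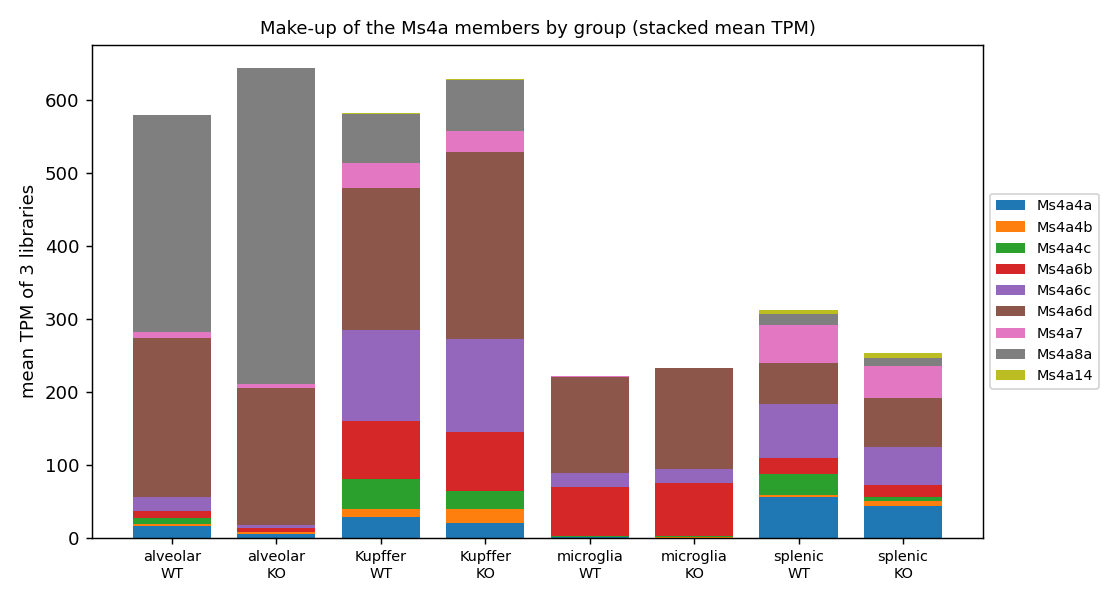
Mean TPM of the 9 members stacked for each of the 8 groups (bars are means of 3 libraries, vertical axis from 0). Ms4a8a (grey) makes up more than any other member of the alveolar bars, Ms4a6d (brown) of the microglia bars, and the splenic bars hold a mixture.

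Genotype was compared within each cell type, 3 KO against 3 WT libraries. In alveolar macrophages Ms4a6c (ENSMUSG00000079419) was lower in KO, at 3.21, 3.06 and 2.56 CPM against 13.1, 15.1 and 10.8 CPM in WT. All KO libraries lay well below all WT libraries, a mean 4.41-fold lower. The log2 fold change of Ms4a6c was -2.12 ± 0.26 (SE, edgeR adjusted p = 0.0346), and it was the only member called of 8 that passed the filter on low counts. Genes called lower made up 0.132% of the 17369 tested, and genes called in either direction 0.317%. The call was lost when any 1 of the 6 libraries was left out, with adjusted p from 0.0679 to 0.199 and log2 fold changes from -2.24 to -1.95. DESeq2 called 4 members in these libraries (Ms4a4a, Ms4a4c, Ms4a6c and Ms4a8a), where it called 5.08% of genes, and a single fit of all 24 libraries called 3 (Ms4a4c, Ms4a6b and Ms4a6c), against 1.24%. BE692007, the antisense gene that shares exon bases with Ms4a6c, was at 1.16 ± 0.382 CPM in WT and 0.122 ± 0.138 CPM in KO alveolar macrophages (edgeR adjusted p = 0.228). Its KO libraries lay wholly below WT, and it was called by DESeq2 (adjusted p = 0.024) and in the fit of 24 libraries (edgeR adjusted p = 0.00442).

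Other members also separated the genotypes in alveolar macrophages without passing the test. Ms4a4c stood at 2.87, 6.99 and 4.32 CPM in WT and at 0.41, 0.941 and 0.302 CPM in KO. Its log2 fold change of -3.08 ± 0.61 was the most negative of the 8, with an edgeR adjusted p of 0.11 and a range from 3.01e-05 to 0.381 over the alternatives run. Ms4a4a was at 5.33, 3.56 and 4.53 CPM in WT and at 1.999, 0.628 and 1.35 CPM in KO (adjusted p = 0.214, from 0.0218 to 0.504 over the alternatives). Ms4a8a, the main Ms4a gene of these cells, had the opposite sign. It stood at 172, 162 and 177 CPM in WT and at 304, 242 and 226 CPM in KO, a log2 fold change of 0.63 ± 0.14 (adjusted p = 0.137, from 0.00714 to 0.63 over the alternatives). Its share of the summed TPM of the 9 genes was 51.2 ± 2.44% in WT and 67.1 ± 1.51% in KO. In all, KO lay wholly below WT for 5 members (Ms4a4a, Ms4a4c, Ms4a6b, Ms4a6c and Ms4a7) and wholly above it for Ms4a8a, where 11.8% and 7.61% of genes tested did so. The median log2 fold change of the 8 members was -0.66, against -0.01 over all genes tested.

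**Figure D3:**
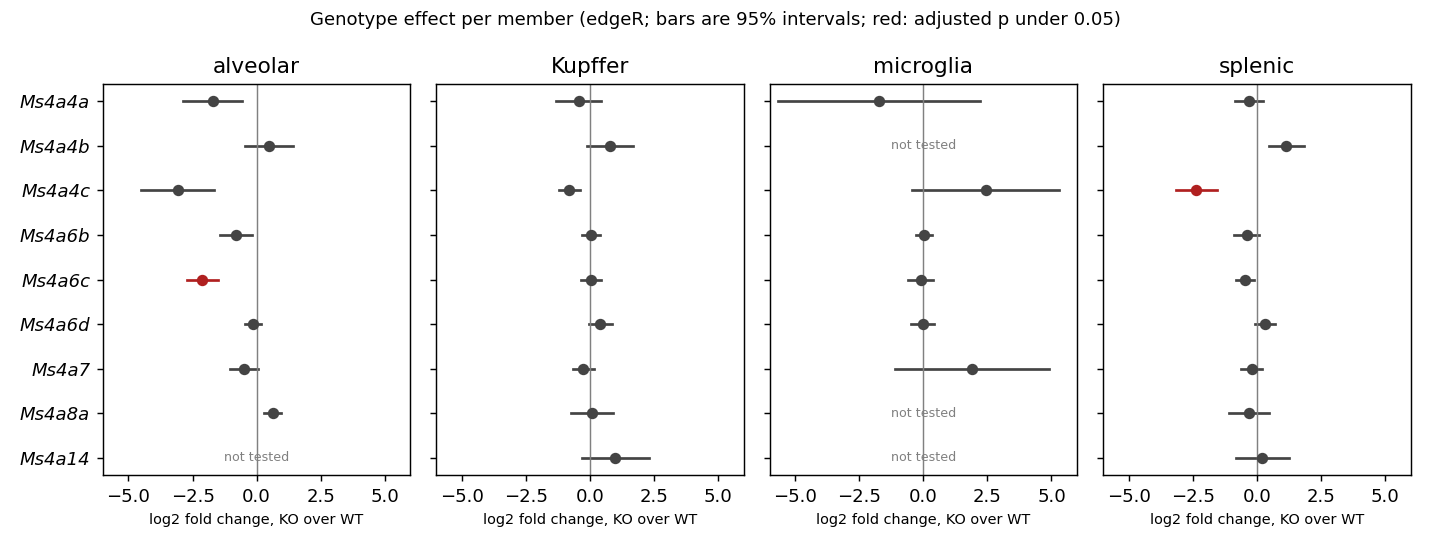
Log2 fold change of KO over WT for each member in each cell type, with its 95% interval from edgeR; red marks an adjusted p under 0.05, and members with too few counts are marked as not tested. Ms4a6c in alveolar macrophages and Ms4a4c in splenic macrophages are the red points, and the intervals of 6 tested members in microglia all include 0.

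In splenic macrophages the member called was Ms4a4c (ENSMUSG00000024675). It stood at 19.5, 11.2 and 15.6 CPM in WT and at 3.73, 3.04 and 1.90 CPM in KO. The genotypes were far from overlapping, with a mean 5.34-fold lower in KO and a log2 fold change of -2.36 ± 0.34 (edgeR adjusted p = 0.0356). It was the only call among 9 members tested, where 0.618% of the 17808 genes were called lower and 0.747% in either direction. This call too was lost when any 1 of the 6 libraries was left out (edgeR adjusted p from 0.0804 to 0.139). The log2 fold changes then ran from -2.59 to -2.11. The call was also lost in a single fit of all 24 libraries (adjusted p = 0.197), which called 0 members and 0.603% of genes. DESeq2 called Ms4a4c and Ms4a4b, against 4.84% of genes. Ms4a6c was at 48.2, 40.9 and 55.3 CPM in WT and 35.2, 34.8 and 31.8 CPM in KO. Its libraries did not overlap, but its log2 fold change of -0.46 ± 0.15 did not pass (adjusted p = 0.303). KO lay wholly below WT for Ms4a4c and Ms4a6c and wholly above it for Ms4a4b, where 11.9% and 8.02% of genes did so. The median over the 9 members was -0.30, against -0.0029 over all genes.

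The near copy Ms4a4b did not follow Ms4a4c. In splenic macrophages Ms4a4b stood at 11.4, 6.59 and 8.62 CPM in WT and at 21.6, 22.6 and 13.1 CPM in KO. The KO libraries were all higher, with a log2 fold change of 1.16 ± 0.30 that did not pass (edgeR adjusted p = 0.184, from 0.00781 to 0.503 over the alternatives). The ratio of Ms4a4b to Ms4a4c counts, chosen after the values had been seen and therefore not tested, was 0.584, 0.589 and 0.553 in splenic WT and 5.79, 7.43 and 6.88 in splenic KO. In alveolar macrophages the same ratio was 1.26, 1.04 and 1.42 in WT and 25.0, 8.28 and 16.3 in KO. In Kupffer cells it was 1.44, 1.45 and 1.06 in WT and 4.74, 5.58 and 1.84 in KO. KO libraries had the higher ratio in all 3 cell types without overlap. In microglia these genes had too few counts for a ratio.

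**Figure D4:**
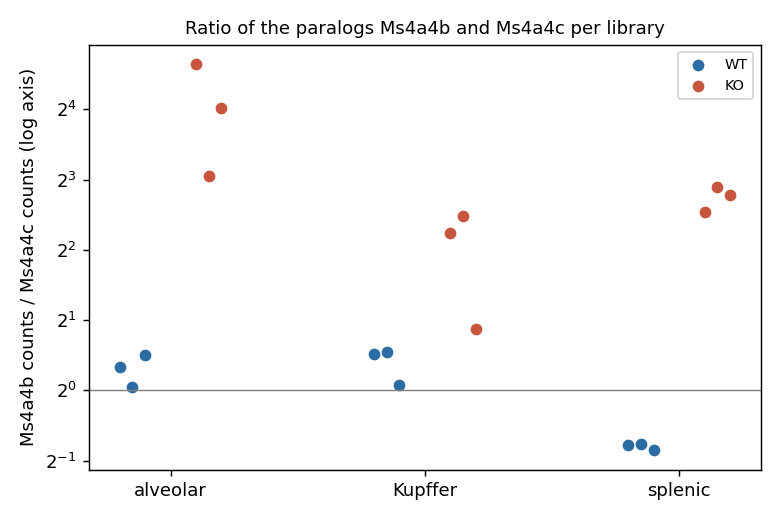
Ratio of Ms4a4b counts to Ms4a4c counts in each library of 3 cell types, on a logarithmic axis in powers of 2, WT in blue and KO in red. The splenic WT libraries lie between 0.553 and 0.589 and the splenic KO libraries between 5.79 and 7.43.

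In Kupffer cells 0 of 9 members were called by edgeR, where 0.0629% of the 19085 genes were. At an unadjusted p under 0.05 there was 1, Ms4a4c, against 6.94% of genes. DESeq2 also called it (adjusted p = 0.00166), against 2.2% of genes. Ms4a4c stood at 25.9, 22.7 and 21.4 CPM in WT and at 11.1, 14.9 and 13.7 CPM in KO, without overlap, a log2 fold change of -0.80 ± 0.17 (edgeR adjusted p = 0.217, from 0.00166 to 0.973 over the alternatives). KO lay wholly below WT for Ms4a4c and wholly above it for Ms4a6d (94.3, 109 and 121 CPM in WT, 133, 122 and 165 CPM in KO), where 7.04% and 5.87% of genes did so. Ms4a6c, so different in the alveolar libraries, was at 81.3 ± 9.33 CPM in WT and 82.9 ± 8.94 CPM in KO Kupffer cells, and the 95% interval of its log2 fold change ran from -0.34 to 0.45. Ms4a4b was spread widely, from 25.3 to 83.1 CPM in KO and from 22.6 to 37.2 CPM in WT.

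In microglia none of the 6 members tested was called, and neither was any of the 17880 genes tested (0%). No member had an unadjusted p under 0.05 in edgeR, where 4.44% of genes did, and DESeq2 called 0 of them and 0.519% of genes. The members these cells express had narrow intervals: the log2 fold change of Ms4a6b was 0.02 (95% interval from -0.30 to 0.35), that of Ms4a6d -0.02 (from -0.47 to 0.43) and that of Ms4a6c -0.11 (from -0.59 to 0.37). KO and WT overlapped for all 9 members, where 5.58% of genes lay wholly above and 5.45% wholly below WT in KO. Ms4a4c had 96, 114 and 20 counts in KO microglia and 0, 12 and 28 in WT, which overlapped (edgeR adjusted p = 0.987).

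A difference between cell types was tested directly, as the interaction of genotype with cell type in a fit of all 24 libraries. Ms4a6c passed (edgeR adjusted p = 0.000454), the only member of 9, where 0.524% of 24030 genes did. It passed under each alternative run, with adjusted p from 4.93e-13 to 0.00278. Its log2 fold changes were -2.12 in alveolar macrophages, -0.46 in splenic macrophages, -0.11 in microglia and 0.05 in Kupffer cells. For Ms4a4c the interaction had an adjusted p of 0.054 (from 1.28e-05 to 0.124 over the alternatives), and for Ms4a4b of 0.134. In the cluster Ms4a4c and Ms4a6c, with their low KO values, lie on either side of Ms4a4b, which edgeR called in no cell type. A link between position and these effects was not tested.

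**Figure D5:**
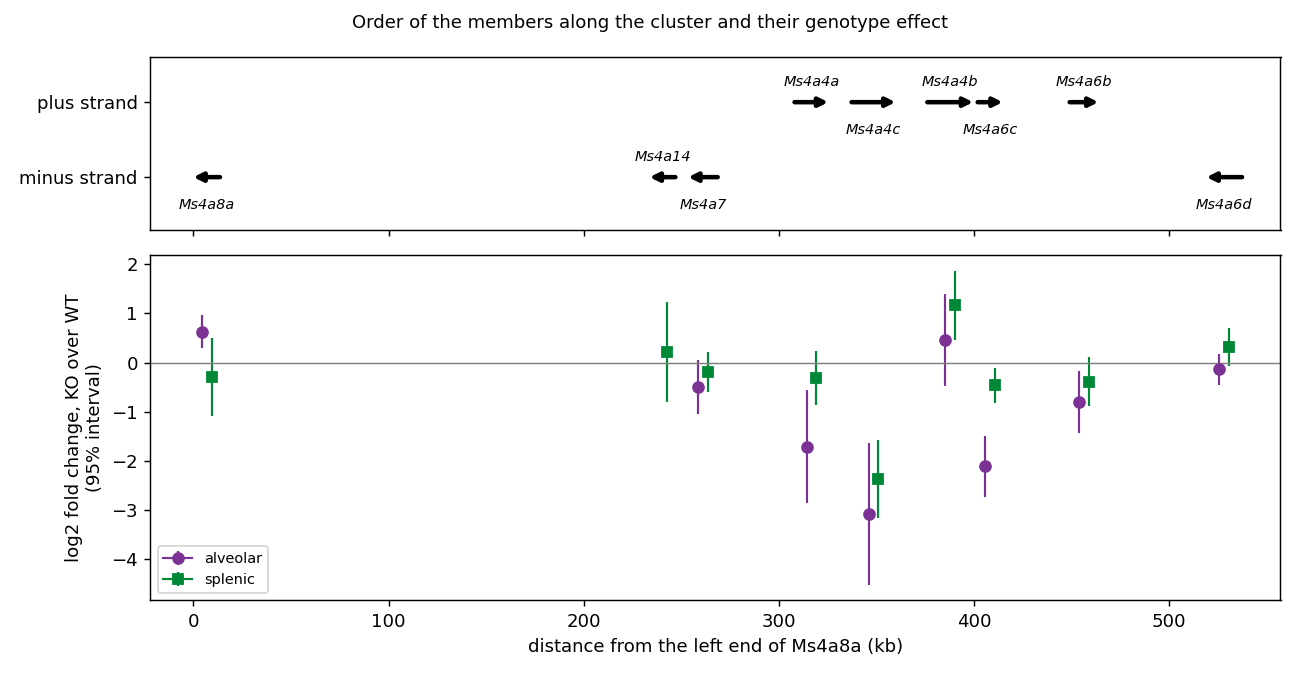
Upper panel, the 9 genes as arrows in the direction of transcription, by distance in kb from the left end of Ms4a8a. Lower panel, log2 fold change of KO over WT with its 95% interval at each gene in alveolar (purple circles) and splenic macrophages (green squares); Ms4a4c and Ms4a6c lie below 0 in both and Ms4a4b, between them, above 0 in both.

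Genes listed as markers of other cell types moved with genotype in the same libraries. Over all genes tested, edgeR called 0.317% in alveolar macrophages, 0.0629% in Kupffer cells, 0% in microglia and 0.747% in splenic macrophages. In the same order, DESeq2 called 5.08%, 2.2%, 0.519% and 4.84%. An unadjusted p under 0.05 in edgeR was reached by 12.5%, 6.94%, 4.44% and 11.7% of genes. The 13 B cell markers summed to 1376 to 2068 CPM in splenic WT and 84.2 to 135.5 CPM in splenic KO, and all 13 were called lower by edgeR. In Kupffer cells their sum ranged from 857 to 1345 CPM in WT and from 132 to 163 CPM in KO (6 of 13 called lower), and in alveolar macrophages from 225 to 338 and from 97.7 to 124 CPM (4 of 12 tested called lower, and 3 of 13 at 0 in all KO libraries). Cd22 alone was at 144.8 CPM in alveolar WT and 104.1 CPM in alveolar KO (edgeR adjusted p = 0.2908). The other 12 genes summed there to 87.1 to 174.6 CPM in WT and 7.95 to 9.4 CPM in KO. In microglia the B cell sums overlapped, and Ighm made up most of them, at 586.9 CPM in WT and 559.7 CPM in KO. The 10 neutrophil markers summed to 218 to 398 CPM in alveolar WT and 566 to 730 CPM in KO, and to 166 to 248 and 628 to 841 CPM in splenic macrophages (1 and 4 called higher). All 10 were above 0 in both cell types. The alveolar call was Cxcr2, at 17.7 CPM in WT and 109.7 CPM in KO (edgeR adjusted p = 0.00885). Csf3r was the most abundant there, at 121.5 CPM in WT and 248.5 CPM in KO (edgeR adjusted p = 0.0811). The other 9 genes, Cxcr2 among them, summed to 127 to 240 CPM in WT and 313 to 474 CPM in KO, without overlap. In microglia Csf3r was at 746.9 CPM in WT and 771.1 CPM in KO. The other 9 neutrophil genes summed there to 0.335 to 0.932 CPM in WT and 5.23 to 14.05 CPM in KO, without overlap. Of the 5 tested in microglia, all were above 0, edgeR called 0 and DESeq2 called 4, against 0.519% of genes. Cd209a, a gene of monocytes and monocyte-derived dendritic cells, was at 14.8 CPM in alveolar WT and 0.00546 CPM in alveolar KO (edgeR adjusted p = 0.00846). In WT and KO Cd209a was at 37.8 and 0.585 CPM in Kupffer cells and at 6.47 and 0.437 CPM in splenic macrophages. Neither of these differences was called (edgeR adjusted p = 0.139 and 0.351). Cd209a was the 1 gene called of the 10 of the dendritic cell list in alveolar macrophages (1 also by DESeq2), where 4 genes were above 0 and 6 below. That list summed to 65.6 to 89.6 CPM in alveolar WT and 42.2 to 63.4 CPM in alveolar KO, without overlap. In Kupffer cells and in splenic macrophages 5 of the 10 were above 0 and 5 below. In splenic macrophages edgeR called 1 of the 10 and DESeq2 5. The edgeR call was Xcr1, a chemokine receptor of dendritic cells, higher in KO (4.10 CPM in WT, 19.95 CPM in KO, adjusted p = 0.032). The monocyte genes Ccr2, at 12.6 CPM in alveolar WT and 5.8 CPM in KO, and Ly6c2, at 8.08 and 5.58 CPM, were not called (adjusted p = 0.255 and 0.584). Of 17 monocyte markers 0 were called in alveolar macrophages, with 6 at an unadjusted p under 0.05 and 5 called by DESeq2. Of these 17, 7 were above 0 there and 10 below. In splenic macrophages 11 were above 0 and 6 below. There 0 were called by edgeR, with 7 at an unadjusted p under 0.05, and DESeq2 called 6. The 14 genes of the border-associated list were all below 0 in alveolar macrophages, where they summed to 1643 to 2073 CPM in WT and 1301 to 1508 CPM in KO, and 0 were called (5 at an unadjusted p under 0.05, 3 by DESeq2). Mrc1, also listed as an identity gene of alveolar macrophages, made up most of this sum, at 1305 CPM in WT and 1052 CPM in KO. The other 13 genes summed to 431 to 630 CPM in WT and 297 to 398 CPM in KO, without overlap. The part of these cells in the values of Ms4a4c and Ms4a6c was not tested.

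For Ms4a4b the relevant markers are those of T and NK cells. Their 20 genes summed to 183 to 336 CPM in splenic WT and 227 to 326 CPM in splenic KO, which overlapped, and to 384 to 674 and 450 to 882 CPM in Kupffer cells. In alveolar macrophages they summed to 352 to 422 CPM in WT and 439 to 474 CPM in KO, without overlap, and Cd2 alone was at 323 and 367 CPM there. The other 19 genes summed to 59.1 to 65.96 CPM in WT and 66.7 to 101.7 CPM in KO. Cd3e was at 4.06 CPM in WT and 5.004 CPM in KO and Trac at 4.26 and 6.06 CPM, and neither was called (edgeR adjusted p = 0.7875 and 0.4344). In microglia, where Ms4a4b was at 0.485 CPM or less, their sum was at most 5.45 CPM. By edgeR 1 of the 20 genes was called in the 4 cell types, Cd8a, higher in splenic KO (adjusted p = 0.049). DESeq2 called 1 in alveolar macrophages, 1 in Kupffer cells, 0 in microglia and 2 in splenic macrophages. Over all genes it called 5.08%, 2.2%, 0.519% and 4.84% in the same order. The log2 fold change was above 0 for 13 of 18 tested in alveolar macrophages, 17 of 20 in Kupffer cells and 18 of 20 in splenic macrophages. The part of T and NK cells in the values of Ms4a4b was not tested.

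Genes whose levels followed a member most closely over the 24 libraries were found by Pearson's r of log2(CPM + 1) among 12281 genes outside the family. These correlations mostly follow the differences between the 4 cell types, which all points share. Ms4a4b was most like Trbc2 (r = 0.98), Il2rb (0.98) and Trac (0.98), which encode a T cell receptor constant region, a chain of the interleukin 2 receptor and the other T cell receptor constant region. These 3 are known as genes of lymphocytes. Ms4a4c was most like Plac8 (r = 0.93), Sfn and Slc28a2. Plac8, a gene of monocytes and other leukocytes, was at 12.6 ± 6.57 CPM in alveolar WT and 2.35 ± 1.52 CPM in KO (edgeR adjusted p = 0.17). Ms4a6c was most like Trim14 (r = 0.97), Gbp3 and Ifi209, 3 genes known as interferon-induced. Of 20 interferon-stimulated genes listed, 0 were called by edgeR in any cell type. In alveolar macrophages 3 had an unadjusted p under 0.05 in edgeR, against 12.5% of genes, and DESeq2 called 1, against 5.08%. Their sum was 272 to 434 CPM in WT and 279 to 315 CPM in KO. In Kupffer cells 18 of the 20 were below 0. There 7 had an unadjusted p under 0.05 in edgeR, against 6.94% of genes, and DESeq2 called 1, against 2.2%. Their sum there was 3271 to 4003 CPM in WT and 2751 to 2968 CPM in KO, without overlap. Ms4a7 was most like Treml4 (r = 0.99), Pilrb1 and Cd300e. Ms4a8a was most like Pdlim1 (r = 0.99), S100a1 and Tagln2, Ms4a6b like Angptl7 (r = 0.96), Calhm2 and Lpar6, and Ms4a6d like Rnpep (r = 0.93), Tax1bp3 and Coro2a. Ms4a4a was most like Plekhm2 (r = 0.95), Slc48a1 and Gm15922, and Ms4a14 like Vnn3 (r = 0.94), Atp10d and Nxpe5. Among the members themselves, Ms4a4a and Ms4a7 were most alike (r = 0.94) and Ms4a6d and Ms4a14 least (r = -0.64).

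Of 12 other genes of the family, Ms4a1 was the one called by edgeR. It fell in splenic macrophages from 82.6 ± 25.5 CPM to 1.58 ± 1.13 CPM (edgeR adjusted p = 0.0107, 1 of 4 tested), beside the B cell markers of which it is one. In Kupffer cells Ms4a1 was at 34.4 ± 9.81 CPM in WT and 0.299 ± 0.249 CPM in KO (adjusted p = 0.0558). Ms4a3, a gene of granulocyte and monocyte progenitors, was at 0.0959 ± 0.114 CPM in alveolar WT and 3.72 ± 0.751 CPM in alveolar KO, a difference that did not pass in edgeR (adjusted p = 0.114) and did in DESeq2 (adjusted p = 6.016e-08). DESeq2 called 2 of the 12 in alveolar macrophages (Ms4a1 and Ms4a3), 1 in Kupffer cells and 1 in splenic macrophages (Ms4a1 in both) and 0 in microglia. Those with an unadjusted p under 0.05 in edgeR numbered 3, 1, 2 and 0 in the same order. The related genes Tmem176a and Tmem176b were high in WT Kupffer cells (110.0 and 387.1 CPM) and microglia (145.7 and 422.1 CPM) and were called in no cell type. Among the partner genes Trem2, Tyrobp, Clec7a, Adam10 and Adam17, 0 were called in any cell type by edgeR, and those with an unadjusted p under 0.05 numbered 3 in alveolar macrophages, 2 in Kupffer cells, 0 in microglia and 2 in splenic macrophages. Over all genes tested, that share was 12.5% in alveolar macrophages, 6.94% in Kupffer cells, 4.44% in microglia and 11.7% in splenic macrophages. DESeq2 called 1 in alveolar and 1 in splenic macrophages. Over all genes DESeq2 called 5.08% in alveolar macrophages, 2.2% in Kupffer cells, 0.519% in microglia and 4.84% in splenic macrophages. Trem2 itself was at 38.4 ± 13.3 CPM in alveolar WT and 70.8 ± 11.1 CPM in KO (edgeR adjusted p = 0.24). Clec7a, the gene of Dectin-1, is named here after its values were seen. In splenic macrophages it was at 110.8 ± 25.5 CPM in WT and 47.7 ± 12.5 CPM in KO, without overlap (edgeR adjusted p = 0.117). In Kupffer cells Clec7a was higher in KO, at 150.7 ± 29.1 CPM in WT and 234.8 ± 56.5 CPM in KO (edgeR adjusted p = 0.644).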

How the data were processed

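RNA was sequenced from sorted macrophages, grouped by labelled cell type and genotype. The authors deposited, for each library, whole-number gene counts, CPM and TPM. The submitters' processing notes name the mm10 build and DRAGEN, STAR, Subread, featureCounts and Salmon, with roles not given in the sources used here. Of 55774 rows, 287 repeated a gene and were dropped. The deposited TPM were the counts scaled by a constant per gene and per library, so they give no separate view of reads shared by near copies. TPM of 4 splenic columns summed too high through the repeated rows.

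Counts were tested across all genes with the quasi-likelihood test of edgeR 4.0.16 (R 4.3.3; TMM, filterByExpr with a minimum count of 10), two-sided, adjusted by Benjamini-Hochberg, and called at 0.05. Single-value permutation tests cannot go below 0.1 with 3 against 3. DESeq2 1.42.0, limma 3.58.1 on log2(TPM + 0.1), RLE scaling, no filter, a replicate block, a fit of 24 libraries and leaving out each library were the alternatives. The members and gene lists were chosen with earlier results of these data known. All 9 members are named. List genes are named where they mark a cell type that moves with a member or belong to the family, and likeness was computed for genes reaching 5 CPM in a group mean. The steps were tested on simulated data. Reads carried no molecular identifiers, so limits from counts cover counting error only, and a group with 0 counts is given the level of 3 counts over the group. Promoters came from RefSeq tables. Marker genes carrying much of a sum (Cd2, Stab1, Mrc1, Cd22, Ighm, Csf3r), and others named beside them, were chosen after their values were seen.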

Additional observations from a re-analysis of the deposited data

Results flagged for a closer look

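The genotype effect on Ms4a6c differed between the 4 cell types (edgeR interaction adjusted p = 0.000454), with log2 fold changes of -2.12 in alveolar macrophages, -0.46 in splenic macrophages, -0.11 in microglia and 0.05 in Kupffer cells.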

How the results depend on the processing

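Members called in alveolar macrophages numbered 1, and 4 with DESeq2, 2 with limma on TPM and 3 in the fit of all 24 libraries. In splenic macrophages 1 became 2 with DESeq2 and 0 in the fit of all 24 libraries, and in Kupffer cells 0 became 1 with DESeq2. For the interaction 1 became 5 with DESeq2, 2 without the filter and 2 with limma. Over all genes, the interaction called 0.524% with edgeR, 4.61% with DESeq2, 0.345% without the filter and 1.72% with limma, and limma called 0.748% in alveolar macrophages. Over all genes, DESeq2 called more than edgeR in each cell type. Leaving out 1 library gave 0 to 0 members in alveolar and in splenic macrophages and 1 to 4 for the interaction (4 without microglia WT replicate 3). The causes of these shifts were not tested. With the replicate number as a block, 0 members were called in alveolar and 0 in splenic macrophages. Deviations of same-numbered libraries correlated at -0.119 to 0.147, and those of differently numbered libraries at -0.162 to 0.147. With 3 libraries per group these values cannot exclude a weak pairing. The main fits used no pairing.

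Values that changed sign were all far from the threshold. The log2 fold change of Ms4a8a in Kupffer cells was -0.0322 with the block and -0.0337 with limma, and that of Ms4a6d in microglia 0.001 and 0.0707. Leaving out 1 library gave ranges of -0.0612 to 0.135 (Ms4a6b), -0.072 to 0.163 (Ms4a6c) and -0.375 to 0.348 (Ms4a8a) in Kupffer cells. In microglia the ranges were -0.0673 to 0.0923 (Ms4a6b), -0.187 to 0.0623 (Ms4a6c) and -0.151 to 0.182 (Ms4a6d). In splenic macrophages they were -0.502 to 0.0452 (Ms4a8a) and -0.129 to 0.451 (Ms4a14). Low counts limit what could be seen of 6 members in microglia.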
